A study of Mus musculus with 2 samples.

Results

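The expression of 54 tight and gap junction genes was compared between Sox9+EpCAM- hepatocytes from DDC-injured livers and mature hepatocytes (MHs) from normal livers. They are the genes whose names on the array are those of claudins (Cldn and a number), connexins (Gja, Gjb, Gjc or Gjd and a number) or zonula occludens scaffolds (Tjp and a digit), together with Ocln, F11r, Cgn, Cgnl1, Marveld2, Marveld3 and Jam3. They take 62 of 39390 probes and are 54 of 30153 genes on the array. RNA of 2 samples was hybridised, each to 1 Agilent array with Cy3 as the only dye, so each group has 1 array. MHs were obtained from healthy livers by low-speed and Percoll gradient centrifugation. Sox9+EpCAM- cells were sorted as GFP+EpCAM- cells by FACS from Sox9-EGFP mice fed with DDC, a compound that injures bile ducts. EGFP stands for Sox9 in this sort, the healthy livers were also of Sox9-EGFP mice according to the methods, and age and the number of mice behind each array are not given in the sources used here. Diet, cell sorting and array differ together between the samples and cannot be told apart.

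Tight junctions are belts of strands that seal the space between neighbouring epithelial cells. In the liver they close the bile canaliculus between hepatocytes, and the lumen of the bile duct between cholangiocytes, off from the blood. Claudins form the strands and set which ions pass, occludin and its relatives accompany them, and scaffold proteins beneath the membrane tie them to actin. Connexins form gap junctions, channels that let ions and small molecules pass from the cytoplasm of a cell to that of its neighbour, and the hepatocyte is known for Gjb1 and Gjb2.

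The probes that the differences turn on are shown here, since for Cldn4, Ocln and Marveld3 more than 1 probe reads the gene, and Cldn9 lies next to its close relative Cldn6. Each is given 5′ to 3′, whole or as a stretch of 30 of its 60 bases, and all lie on the minus strand (mm9). Capitals mark the longest run of bases that the probe shares with a probe of any other gene on the array. Over all 62 probes this run was between 12 and 16 bases long.
Cldn4 at chr5:135421347-135421406, the brighter probe, bases 10 to 39: ATGAATTTCTGTAgagtggatggacgggtt
Cldn4 at chr5:135422135-135422194, the dimmer probe: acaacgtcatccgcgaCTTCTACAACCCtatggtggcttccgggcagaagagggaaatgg
Cldn9 at chr17:23820168-23820227: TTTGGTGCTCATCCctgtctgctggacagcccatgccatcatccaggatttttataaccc
Ocln at chr13:101268529-101268588, the brighter probe, bases 26 to 55: CTGAACACTCCAATtaaggattttacagtt
Ocln at chr13:101267384-101267443, the dimmer probe, bases 31 to 60: tttatataCCTTTCAGACATGgcagtacat
Marveld3 at chr8:112471817-112471876, the brighter probe, bases 31 to 60: gctCAGGCACCTGAGCAgagtaaagttgtg
Marveld3 at chr8:112477083-112477142, the dimmer probe, bases 4 to 33: GGACCATCACCGtatattcccgtacaaatg

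Values are spot intensities as the scanner software gave them, with the background subtracted. Differences are on the log2 scale after each intensity was divided by the 75th percentile of its array, which was 741 in MHs and 1110 in Sox9+EpCAM- cells. An equal intensity on both arrays is therefore a negative difference. The brightest probe stands for a gene. Where a probe was not well above background on 1 array its difference is a bound, written as at least, against its own signal there or, where that is higher, the dimmest signal that was well above background, 27.8 in MHs and 18.4 in Sox9+EpCAM- cells. No test is possible with 1 array per group. The error within an array is known from probes printed at least 8 times. Their median SD between spots was 0.08 on the log2 scale on both arrays, and 0.18 in MHs and 0.17 in Sox9+EpCAM- cells where the mean intensity was under 100. Different probes of a gene differed more. In 3274 genes with 2 probes well above background on both arrays, the 2 log2 differences were a median of 0.66 apart, and over 1 apart in 35.2% of them.

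The sorted cells kept hepatocyte RNA. All 7 hepatocyte markers were well above background in both samples, with a median log2 difference of -1.02, and 2 were at least 4-fold lower, among them Cyp3a11. Alb had an intensity of 207000 in MHs and 170000 in Sox9+EpCAM- cells. Epcam RNA on the array went against the EpCAM- label of the sorted cells, with an intensity of 139 in MHs and 2770 in Sox9+EpCAM- cells, although the gate, set on EpCAM protein, was meant to leave out EpCAM+ cholangiocytes. By quantitative PCR on other isolations, the paper reports hardly any Epcam in both sorted fractions of Sox9+EpCAM- cells, relative to EpCAM+ cells. Sox9 itself was 8.87, not well above background, in MHs and 60.7 in Sox9+EpCAM- cells, at least 1.45-fold higher. Both samples are labelled male, and the MH array went against that label. Xist had an intensity of 1940 on the array labelled MH and was not well above background on the other, while 4 Y-linked genes (Ddx3y, Eif2s3y, Kdm5d and Uty) were read well above background in the Sox9+EpCAM- sample and not in the other. Sex therefore cannot be told apart from diet and sort. In RNA of a cell population, fewer cells of a type and less RNA per cell cannot be told apart either.

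Of the 54 genes, 32 were read well above background in both samples, 7 in Sox9+EpCAM- cells only, 1 in MHs only and 14 in neither. By the rule of size of 4-fold, 7 of the 40 genes above background on at least 1 array were higher in Sox9+EpCAM- cells (17.5%), beside 5.59% of 23417 genes on the array. They were Cldn4, Cldn5, Cldn6, Cldn9, Marveld2, Tjp1 and Tjp3, each but Cldn4 read by 1 probe. Cldn12 alone, also read by 1 probe, was at least 4-fold lower (2.5%), beside 5.57% of all genes. A gene read only on the Sox9+EpCAM- array could be counted as higher but, with the bound, never as lower, so the 32 genes on both arrays are given too. Of these, 5 were at least 4-fold higher (15.6%, beside 3.94% of 19235 genes) and 1 at least 4-fold lower (beside 4.75%). Their median log2 difference was 0.00, beside -0.19 for all genes, with 16 above 0, beside 40.1% of all genes, and 16 below 0. The junction genes lay on both sides of 0 and are described by role. The threshold passes through a cluster of genes. Ocln and Cgn lay just under it at 3.90-fold and 3.88-fold higher, Cldn20 just under it at 3.96-fold lower, and Cldn9 and Tjp1 just above it at 4.35-fold and at least 4.32-fold higher. Scaling to the median of the probes above background on both arrays gave 7 higher and 2 lower, quantile normalization 7 and 3, scaling to Gapdh 11 and 1, and the values of the table that was deposited 5 and 3.

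**Figure D1:**
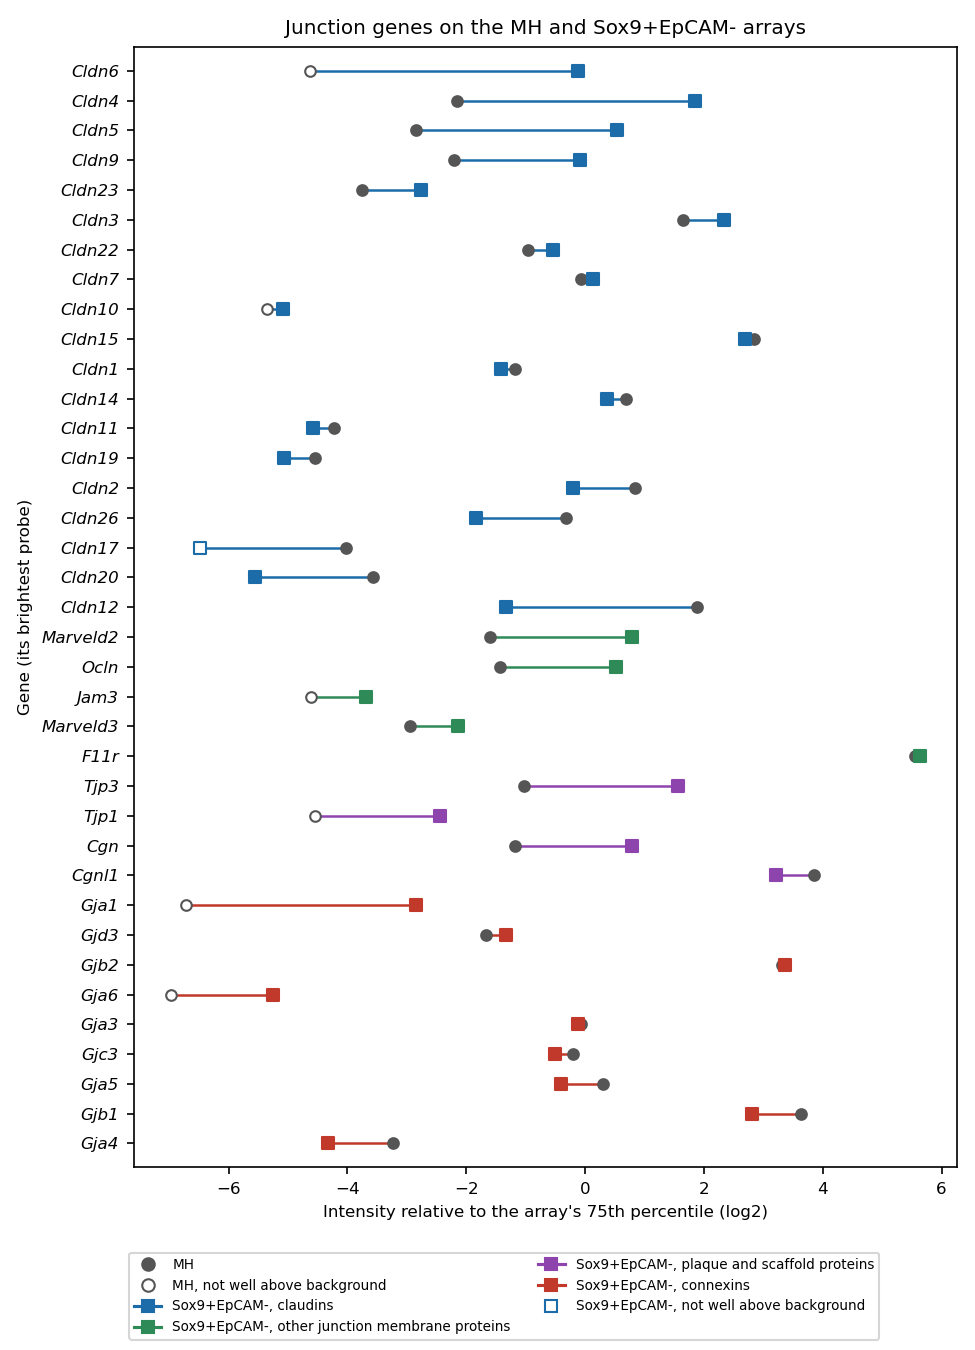
Intensity of the brightest probe of each of 37 junction genes on the MH array (circles) and on the Sox9+EpCAM- array (squares), in log2 relative to the 75th percentile of the array; open symbols were not well above background, and each symbol is 1 array with no error bar. Cldn6, Cldn4 and Cldn5 have the widest gaps to the right among the claudins and Cldn12 the widest to the left among genes read on both arrays, while the symbols of Gjb2 and F11r nearly coincide.

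Among claudins, 4 of the 19 above background on at least 1 array were at least 4-fold higher and 1 was at least 4-fold lower (21.1% and 5.26%, beside 5.59% and 5.57% of all genes). Cldn4, a sealing claudin of bile ducts and other simple epithelia, had an intensity of 167 in MHs and 4000 in Sox9+EpCAM- cells, 16.0-fold higher. Its dimmer probe went from 74.6 to 1080, a log2 difference of 3.27, so both probes shown above were higher by more than the gap of 0.66 that is typical between probes. Cldn6, known from embryonic epithelia and some tumours, had an intensity of 29.8 in MHs, which was not well above background, and 1020 in Sox9+EpCAM- cells, at least 22.8-fold higher. Cldn9, a close relative of Cldn6, had 161 and 1050, a log2 difference of 2.12. Cldn6 and Cldn9 have no other protein-coding gene between them, and their probes start 1.141 kb apart on chromosome 17. Background correction by normexp, with an offset of 50, gave 1.75 for Cldn9 and 2.85 for Cldn6.

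Cldn5, the claudin of blood vessel endothelium, had an intensity of 103 in MHs and 1610 in Sox9+EpCAM- cells, 10.4-fold higher (log2 difference 3.38, with 2.79 by normexp), from 1 probe at chr16:18778046-18778105. Endothelial markers did not rise with Cldn5. Of 10 such markers, 9 were well above background in MHs and 8 in Sox9+EpCAM- cells. Of the 10, 0 had a difference above 0, beside 40.1% of genes read on both arrays. At least 4-fold lower were 5, beside 5.57% of all genes. Vwf (600 and 745) and Emcn (45.2 and 65.2) differed little, with log2 differences of -0.27 and -0.05. The summed level of the 10 markers, in units of the 75th percentile, was 8.99 in MHs and 3.02 in Sox9+EpCAM- cells. Cdh5 was not well above background in Sox9+EpCAM- cells and Lyve1 on neither array. Pecam1, which encodes CD31, had an intensity of 669 in MHs and 594 in Sox9+EpCAM- cells. GFP+EpCAM- cells were gated within CD31-CD45- cells in a time course of the study, and whether that gate was used for the array is not given in the sources used here. The part of endothelial cells in the value of Cldn5 was not tested. Among the junction genes, Gja4, a connexin of arterial endothelium, went the other way from Cldn5, with 78.9 and 55.6, a log2 difference of -1.09.

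Markers of cholangiocytes, which Cldn4 is also known to mark, moved in part. Of 10 markers, 9 were well above background in MHs and all 10 in Sox9+EpCAM- cells, 7 had a difference above 0 and 2 were at least 4-fold higher, Spp1 with 122-fold and, against the gate, Epcam with 13.3-fold. Their summed level was 3.03 in MHs and 49.6 in Sox9+EpCAM- cells, most of it Spp1, and Krt7 and Krt19 had log2 differences of -0.23 and 0.42. Their part in the values of Cldn4, Cldn6 and Cldn9 was not tested.

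Cldn12, a claudin linked to calcium permeability, was the claudin with the widest gap in the other direction. Its intensity was 2750 in MHs and 443 in Sox9+EpCAM- cells, 9.30-fold lower (log2 difference -3.22). It was below -2.9 under each of the 10 alternatives, from -3.39 to -2.93. Cldn20 had 62.4 and 23.6, a log2 difference of -1.99, with -1.04 by normexp. Cldn26, whose current symbol is Tmem114, had 595 and 312, a log2 difference of -1.51. Cldn17, an anion pore of the kidney, had 45.8 in MHs and 12.4, not well above background, in Sox9+EpCAM- cells, at least 3.73-fold lower (log2 difference -1.90), with -1.04 by normexp. Cldn2, a cation and water pore of hepatocytes and bile ducts whose gene is on the X chromosome, had 1330 and 965, a log2 difference of -1.05, and its other probe -1.17.

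Other claudins differed less. Cldn3 had 2320 and 5600, a log2 difference of 0.69, and Cldn1 had 329 and 415, a log2 difference of -0.25, which became 0.02 under scaling to Gapdh. Cldn3 neighbours Cldn4, with the probes 41.937 kb apart on chromosome 5, and they were 1.61-fold (Cldn3) and 16.0-fold (Cldn4) higher. Cldn23 had 54.7 and 164, a log2 difference at the edge of 2-fold, and of 0.42 by normexp. Cldn7, Cldn11, Cldn14, Cldn15, Cldn19 and Cldn22 were within 2-fold, from -0.53 for Cldn19 to 0.42 for Cldn22, and 2 probes of Cldn7 gave 0.21 and 0.20. Cldn10 was read only on the Sox9+EpCAM- array, at 32.7, with no fold against the bound. Cldn8, Cldn13, Cldn16, Cldn18, Cldn24 and Cldn27 (now Tmem235) were not well above background on either array.

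**Figure D2:**
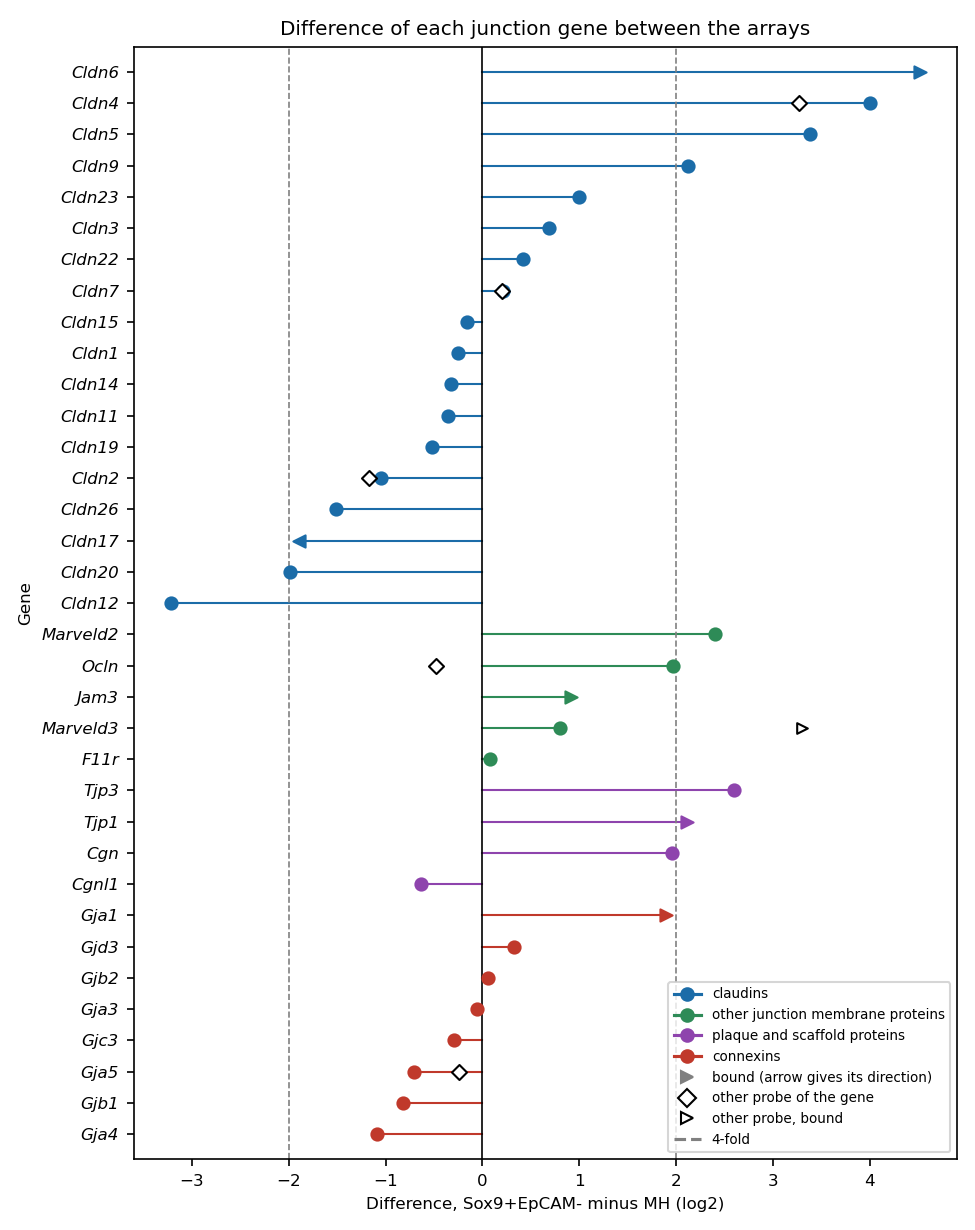
Log2 difference of Sox9+EpCAM- cells minus MHs for 35 junction genes with a difference or a bound, by their brightest probe (filled) and by their other probes (open); arrows are bounds, dashed lines mark 4-fold and each point is 1 array against 1 array. Claudins reach from -3.22 to at least 4.51, Cgn, Tjp1 and Tjp3 lie near or beyond 2, and the connexin drawn above 1, Gja1, is a bound.

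Of the 5 other membrane proteins of the tight junction, 1 was at least 4-fold higher and 2 at least 2-fold higher, beside 5.59% and 14.2% of all genes. Marveld2 encodes tricellulin, which seals the corners where cells meet in threes, and its intensity was 244 in MHs and 1930 in Sox9+EpCAM- cells, 5.28-fold higher (log2 difference 2.40). Ocln, occludin, is its relative and its direct neighbour on chromosome 13. The brighter Ocln probe had 274 and 1600, a log2 difference of 1.96, but the dimmer one, shown above, had 82.9 and 89.1, a log2 difference of -0.48. The 2 readings were 2.44 apart, where the upper quartile of such gaps over the array was 1.31. Marveld3, the last of the occludin family, also had 2 readings. Its brighter probe had 95.9 and 251, a log2 difference of 0.81, and its dimmer probe had 17.0, not well above background, and 409, at least 9.82-fold higher. The 2 Marveld3 probes were designed on different RefSeq transcripts. Which reading stands for the transcripts of Ocln and Marveld3 was not tested.

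F11r and Jam3 are adhesion proteins of the immunoglobulin type. F11r, junctional adhesion molecule A, was among the bright probes on both arrays, with 34700 and 55000, a log2 difference of 0.08 that ranged from -0.10 to 0.59 over the other scalings. Jam3 was read only on the Sox9+EpCAM- array, with 86.1 against 30.4, at least 1.89-fold higher (log2 difference 0.92), with 0.24 by normexp.

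Scaffold genes were mostly higher. Of 5, all above background on at least 1 array, 2 were at least 4-fold higher and 4 at least 2-fold higher, beside 5.59% and 14.2% of genes on the array. Tjp3 encodes a zonula occludens protein of epithelia and had 364 in MHs and 3300 in Sox9+EpCAM- cells, 6.05-fold higher (log2 difference 2.60), from 1 probe at chr10:80735967-80736026. Tjp1, the scaffold that nearly all tight junctions carry, had 31.7, not well above background, and 205, at least 4.32-fold higher (log2 difference at least 2.11), with 0.81 by normexp. Cgn, cingulin, which binds the scaffolds to actin and microtubules, had 329 and 1910, a log2 difference of 1.95. Its paralog Cgnl1 went the other way, with 10700 and 10300, a log2 difference of -0.64. Neither sign changed under the 10 alternatives to the processing.

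**Figure D3:**
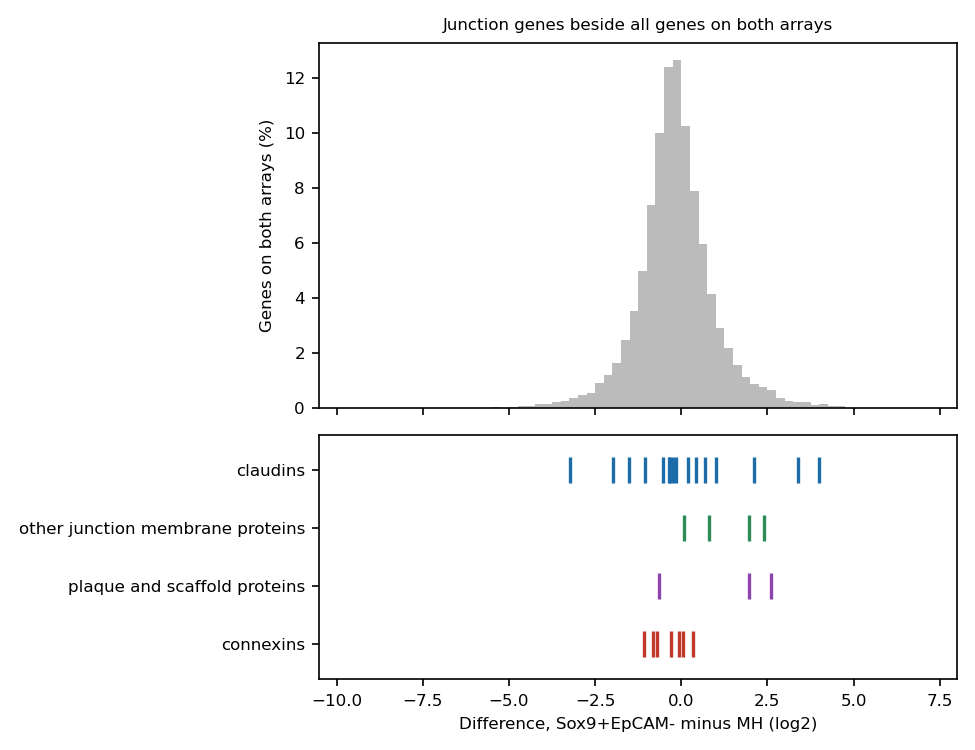
Histogram of the log2 difference of Sox9+EpCAM- cells minus MHs over the 19235 genes well above background on both arrays, as a percent of genes per bin (upper panel), with each of 30 junction genes as a stroke by role (lower panel). The median of all genes is -0.19; the scaffold genes Cgn and Tjp3 lie near 2 or above, where the histogram is thin, and the 7 connexins drawn lie between -1.09 and 0.33.

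Of 19 connexins, 8 were not well above background on either array. None of the other 11 was at least 4-fold higher or lower, beside 5.59% and 5.57% of all genes, although Gja1 passed that size under scaling to Gapdh and without the bound, at 3.87 on the log2 scale. The 8 read on both arrays had a median of -0.24 and lay between -1.09 and 0.33. Gjb1 is the main connexin of the hepatocyte and X-linked. It had an intensity of 9190 in MHs and 7770 in Sox9+EpCAM- cells, which made a log2 difference of -0.83. Gjb2, the other hepatocyte connexin, had 7370 and 11500, a log2 difference of 0.06. The sign for Gjb2 is not settled, since it ranged from -0.11 to 0.44 over the other scalings, while Gjb1 stayed below 0 under each, from -0.46 under quantile normalization to just over 2-fold lower in the deposited table.

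Gja1, a connexin of mesenchymal, endothelial and ductal cells, was the only junction gene printed more than once per probe. Over 9 spots its intensity was between 5.6 and 13.4 in MHs, not well above background, and between 132 and 180 in Sox9+EpCAM- cells, where the median was 155. The spots of the 2 arrays did not overlap, which covers the spread between spots only, and the bound was at least 3.72-fold higher (log2 difference 1.89), with 0.73 by normexp. Mesenchymal markers moved with it in part. Of 10, 8 were well above background on each array, 8 had a difference above 0 and 4 were at least 4-fold higher, among them Col3a1 with 85.1-fold. Their summed level was 12.3 in MHs and 44.6 in Sox9+EpCAM- cells, Lrat was not well above background in Sox9+EpCAM- cells and Pdgfrb on neither array. Their part in the value of Gja1 was not tested.

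Gja6 was just above background on the Sox9+EpCAM- array, at 29.0, with no fold against the bound. Gja5 had log2 differences of -0.71 and -0.24 by 2 probes, and its other probe gave no fold. Gja3, Gjc3 and Gjd3 were between -0.29 and 0.33. Gja10, Gjb5, Gjb6, Gjc1, Gjd2 and Gjd4 were not well above background on either array.

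Other genes of the junctions, which are not in the lists above, were read for comparison. Of 35 on the array, 32 were above background on at least 1 array, 3 were at least 4-fold higher and 0 at least 4-fold lower, beside 5.59% and 5.57% of all genes, and the 29 read on both had a median of 0.06. Cxadr, an adhesion receptor of the tight junction, had 121 and 873, 4.82-fold higher. Amotl1, an angiomotin that sits at junctions and binds YAP, was 4.73-fold higher, and Arhgef2, a GTPase exchange factor that cingulin holds at junctions, was at least 7.20-fold higher. In all, 20 of these other junction genes had a difference above 0 and 12 below. The polarity genes were on both sides, for example Pard3 at -1.01 and Prkci at 1.22. Leukocyte markers, which could mark cells other than epithelium, were lower: of 9 on the array 8 had a difference below 0 and none above, and their summed level was 25.0 in MHs and 2.48 in Sox9+EpCAM- cells.

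Promoters of 38 of the 54 genes were in the RefSeq table (GRCm38.p6), and the 250 bases before the gene start were searched on both strands for 2 motifs. The motif AACCNGTT, which grainyhead factors such as Grhl2, a regulator of claudins in epithelia, are known to bind, was found in 3 of the 53 promoters of these genes, those of Cgn, Cldn5 and Gjb6, beside 1.79% of 32851 promoters. The motif GGGCGG, the GC box of Sp factors, cannot overlap it by its letters and was found in 25 of the 53, beside 32.7% of all promoters. Of the 6 genes at least 4-fold higher with a promoter entry, Cldn5 alone held AACCNGTT, and Gjb6 was not well above background on either array. The promoters of Cgn and Cldn5 are shown as those of the 3 whose genes had a measured difference, with the match in capitals. The match begins 29 bases before the start of Cgn and 20 bases before that of Cldn5.
Cgn at chr3:94786483-94786732, minus strand: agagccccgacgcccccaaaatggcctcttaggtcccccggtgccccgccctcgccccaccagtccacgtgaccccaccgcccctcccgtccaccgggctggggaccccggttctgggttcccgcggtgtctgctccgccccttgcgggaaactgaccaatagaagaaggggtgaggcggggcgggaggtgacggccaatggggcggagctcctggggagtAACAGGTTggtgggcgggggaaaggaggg
Cldn5 at chr16:18776597-18776846, plus strand: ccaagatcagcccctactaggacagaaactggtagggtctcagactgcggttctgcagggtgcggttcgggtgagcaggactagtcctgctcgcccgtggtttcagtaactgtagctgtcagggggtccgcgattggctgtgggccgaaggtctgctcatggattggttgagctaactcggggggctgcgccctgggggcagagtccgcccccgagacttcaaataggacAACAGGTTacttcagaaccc
The matches describe letters in these windows, and binding of any factor was not measured.

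**Figure D4:**
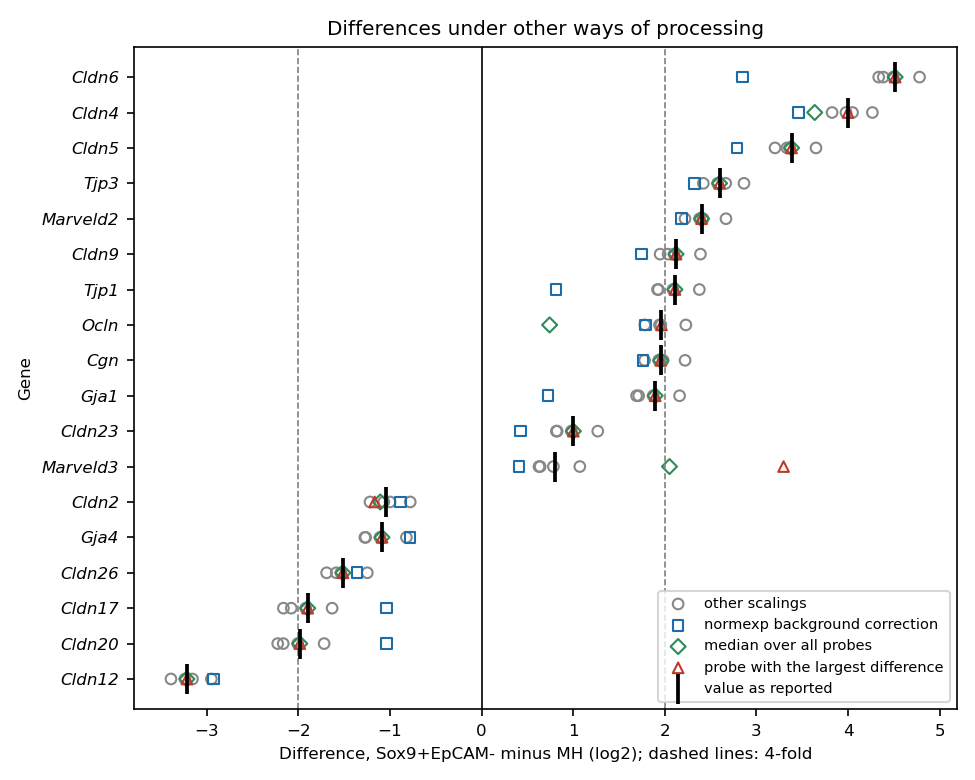
Log2 difference of 17 junction genes at least 2-fold different, and of Marveld3, as reported (black strokes) and under other processing (open symbols: 4 other scalings, normexp background correction, the median over all probes and the probe with the largest difference); dashed lines mark 4-fold. No gene crosses 0, normexp draws Tjp1 and Gja1 towards 0, and the choice of probe moves Ocln to 0.74 and Marveld3 to 3.30.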

How the data were processed

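The authors deposited, for each of 2 arrays, the spot intensity written by Agilent Feature Extraction 10.7.3.1, with the background subtracted and spatial trends removed but without normalization between arrays, and the raw mean and local background intensity. They also deposited a table of ratio values, each the processed intensity divided by a constant, the median of its array (SD of the log2 factor 0.0018 on each). The labelling protocol is described as undisclosed. Of 43020 spots that are no controls, 27523 (MHs) and 32158 (Sox9+EpCAM- cells) were well above background and none was saturated.

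Control spots were left out, as were 276 spots that the software marked as outliers in either sample, intensities were scaled to the 75th percentile and taken to log2, and spots of a probe were averaged. The brightest probe stood for a gene, and where a probe was not well above background in 1 sample, a bound took the place of its signal. Genes were counted from a 4-fold difference. Genes well above background on at least 1 array are named, with values where they differed by at least 2-fold or their probes by over 1 on the log2 scale. Other values, such as those of Gjb1, Gjb2, Cldn1, Cldn3 and F11r, were chosen after they were seen, and the motifs too. Some members enter the counts and are not reported here by name. The members and lists were chosen with earlier results of these data known. Gene names are those of the array, of which 52 are current RefSeq symbols and 2 synonyms. Normexp used limma 3.58.1 in R 4.3.3, and all other steps ran in Python 3.11.15 (numpy 2.4.6, pandas 2.3.3), after a check on simulated data. Alternatives were other scalings, normexp, other probe choices, outlier spots kept, no bound, genes read in both samples only, and other thresholds. Intensity over background and the number of arrays limit the precision.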

Additional observations from a re-analysis of the deposited data

How the results depend on the processing

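The 7 junction genes at least 4-fold higher became 11 under scaling to Gapdh, Cgn, Gja1 and Ocln among those added, 13 with a threshold of 2-fold and 3 with one of 10-fold. The 1 gene at least 4-fold lower became 2 under scaling to the median of the probes read on both arrays or without the bound, 3 under quantile normalization and in the deposited table, 6 at 2-fold and 0 at 10-fold. Cldn12 was among them in each setting but the last. Cldn4, Cldn5 and Marveld2 were at least 4-fold higher under all 10 alternatives to the processing, and so was Tjp3. Cldn9 and Tjp1 were not under normexp or in the deposited table, nor Tjp1 under quantile normalization, and Cldn6 and Tjp1 drop out where genes must be read on both arrays. Scaling to Gapdh shifted the median of all genes by 0.27 and the deposited table by -0.18 on the log2 scale, with 1650 genes higher and 1006 lower, and 1130 and 1563, against 1309 and 1304 reported. Both settings divide every intensity of an array by a constant, so all log2 differences move by about the same amount and the counts move with them. Why the scalings disagree was not tested. Of 38 genes with a difference, 6 changed sign under another scaling, none of them 2-fold different. Values of single genes moved by over 1.5-fold in 12 cases, 8 of them under normexp. With 1 array a group no replicate could be left out. No paired analysis was possible because MHs and Sox9+EpCAM- cells have a single array each. Signal over background limits the 7 genes read only on the Sox9+EpCAM- array, whose MH level is a bound.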
